A study of Mus musculus with 89 samples.

Results

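Pendrin and the genes of airway salt and fluid transport that work beside it were followed in mouse lung after sensitization and challenge with the mould *Aspergillus fumigatus* (Af), exposure to ozone, or both. The set named 8 genes: the anion transporters Slc26a4 (pendrin) and Slc26a9, the chloride channels Cftr and Ano1, the sodium-potassium-chloride cotransporter Slc12a2 (NKCC1), and Scnn1a, Scnn1b and Scnn1g, the alpha, beta and gamma subunits of the epithelial sodium channel ENaC. Each gene was read by its probe set with the highest mean signal over all 89 arrays. Of the 8 genes, 7 were paired with a probe set, and all 7 were among the 15065 genes tested. Slc26a9, a chloride transporter of airway and stomach epithelium, was not analysed here.

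Airway epithelium sets the depth and pH of the liquid on its surface by moving salt, and water follows. Slc12a2 loads chloride from the blood side, Cftr and Ano1 let it out to the lumen, and ENaC takes sodium back from it. Pendrin exchanges chloride for bicarbonate, iodide or thiocyanate at the luminal membrane, and it is known as a gene that the type 2 cytokines IL-4 and IL-13 and also IL-17 turn on in airway epithelium.

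The study asked how ozone and allergen act on the lung with and without surfactant protein D. Male mice of 7 to 8 weeks were C57BL/6, BALB/c or SP-D-/-, a line without the protein whose background strain the labels do not give. Mice without allergen were put in air or in 3 ppm of ozone for 2 h and their lungs taken 12 h later. Allergen mice received Af into the peritoneum on days 0 and 7 and into the nose on day 13, and lungs were taken 24, 96 or 168 h after that challenge, following the same air or ozone exposure. The groups at 24 h had air, those at 96 h had ozone, and those at 168 h had either. RNA came from the left lobe of perfused lungs, though the design text of the series speaks of a suspension of single cells. In the order air, ozone, 24 h, 96 h, and 168 h in air and in ozone, there were 6, 6, 4, 5, 4 and 6 arrays of C57BL/6 lungs. SP-D-/- lungs gave 5, 4, 6, 6, 5 and 4, and BALB/c lungs 5, 2, 5, 6, 6 and 4. Af challenge with ozone at 24 h, or with air at 96 h, was not analysed here, so the time after challenge can be compared within air (24 against 168 h) or within ozone (96 against 168 h) only.

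Values are log2 signals, on which a difference of 1 is a doubling, and levels of different probe sets are not compared with each other. The filter for low signal was log2 4.45, the 40th percentile of the values of all arrays. Changes are differences of group means ± SE from limma, with p adjusted by the Benjamini-Hochberg method over the 15065 genes, and "rose" and "fell" are used where the adjusted p is under 0.05. Only replicate numbers distinguish the arrays of a group, so p-values measure the spread between arrays, which may be technical, and the number of arrays limits the precision.

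Sftpd, the gene of surfactant protein D, had group means of 9.61 to 11.01 in the wild-type strains and 5.85 to 7.78 in SP-D-/- lungs. On 6 arrays, Sftpd or an index of 40 strain-specific genes went against the label. These are BALB/c Af 24 h replicates 4 and 5, BALB/c Af 168 h with ozone replicate 6, C57BL/6 Af 96 h with ozone replicate 1, C57BL/6 Af 168 h with ozone replicate 5, and SP-D-/- Af 96 h with ozone replicate 1. Sftpd was doubted under 9 in the wild-type strains and over 8 in SP-D-/- lungs. The index was doubted on the C57BL/6 side in BALB/c lungs and on the BALB/c side in the others. BALB/c Af 24 h replicate 4 was flagged at Sftpd 8.79. C57BL/6 Af 168 h with ozone replicate 5 was flagged at an index of 0.015, near the middle. BALB/c Af 24 h replicate 5 (Sftpd 7.68) also had a low mean of 5 club cell markers (5.78). A flag does not show that these arrays were mislabelled. For the 7 genes, the changes against controls and over time named here are also given without them where leaving them out ended or made a call, turned the direction or moved the value by over 1.5 times. The signal of the spiked-in hybridization controls ranged from 7.86 to 11.76 over arrays. The 3′ minus 5′ signal of beta-actin, a sign of RNA quality, differed between the groups compared. In C57BL/6, SP-D-/- and BALB/c lungs its means were 1.59, 1.88 and 1.71 in air and 2.84, 2.54 and 2.64 at Af 24 h. They were 1.72, 2.75 and 2.16 with ozone alone and 2.87, 2.70 and 3.08 at Af 96 h with ozone. In SP-D-/- lungs this actin signal was thus as high with ozone alone as with Af. With it and the control level in the fit, and without the doubted arrays, the Slc26a4 changes at Af 24 h were 4.08, 3.05 and 5.26, each called. Epithelial RNA was present, though these markers are not particular to lung: the mean of 5 pan-epithelial markers was 8.41 or more on every array outside 2 groups, BALB/c and C57BL/6 at Af 24 h, whose lowest arrays were at 6.29 and 7.76. At BALB/c Af 24 h the lowest array means were also 8.72 for alveolar type 2 and 7.96 for type 1 markers, against 11.87 and 10.32 or more in BALB/c air. Muscle RNA differed between groups, with the skeletal muscle gene Acta1 at a mean of 9.86 in BALB/c air and 4.09 at Af 168 h with air. In whole-lobe RNA, fewer cells of a type and less RNA per cell cannot be told apart.

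Slc26a4 lies at chr12:31519814-31560055 and Cftr at chr6:18170687-18322770 (GRCm38.p6). The sequences before the start of each are printed because the 2 genes lie at different places in the range of base composition. They are RefSeq sequences, 5′ to 3′ on the gene's own strand, all in lower case. The RefSeq promoter table sets the start of Slc26a4 inside the gene span given above, so that 71 of the 250 bases before that start lie within the span, and the 179 bases outside it are printed. The first is chr12:31560056-31560234, minus strand, and the second, 250 bases, chr6:18170437-18170686, plus strand.
Slc26a4: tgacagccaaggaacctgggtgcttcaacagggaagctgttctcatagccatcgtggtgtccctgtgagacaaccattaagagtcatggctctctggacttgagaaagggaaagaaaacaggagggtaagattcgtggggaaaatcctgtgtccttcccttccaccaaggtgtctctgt
Cftr: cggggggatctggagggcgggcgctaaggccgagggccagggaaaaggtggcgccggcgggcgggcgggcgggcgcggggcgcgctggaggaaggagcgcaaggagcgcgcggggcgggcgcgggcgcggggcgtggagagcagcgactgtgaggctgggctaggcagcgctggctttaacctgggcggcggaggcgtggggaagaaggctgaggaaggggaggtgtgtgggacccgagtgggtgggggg
The 250 bases before the table's start of Slc26a4 are 49.6% G and C. They hold TATAAA 31 bases before that start, within the gene span, a motif found on either strand in 12.4% of 32851 promoters of this length. The Cftr stretch is 76.4% G and C, above 97.18% of these promoters, and holds no TATAAA. Of the 8 genes, 6 had an entry. G and C made up 50% in Slc26a9, which also holds TATAAA, 60.8% in Scnn1b, 65.2% in Scnn1g and 72.0% in Ano1, against a median of 52.4%. The Ano1 window lies wholly inside the Ano1 gene span, as do 59 bases of the Scnn1g window. The letters TTCNNNNGAA, a form bound by STAT6, occur on either strand in 5.85% of promoters, and TTCNNNGAA, the form bound by other STAT factors, in 7.02%. Neither was found in these windows of the 6 genes.

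Slc26a4 was the gene of the set that moved furthest. Its group means spanned 5.53 log2 units over the 18 groups, a larger span than in 99.95% of genes tested, and it was above the filter on 86 arrays. The lowest means were 4.41 ± 0.06 (SD, n = 5) in BALB/c and 5.02 ± 0.15 (SD, n = 6) in C57BL/6 air lungs. The highest was 9.94 ± 0.27 (SD, n = 5) in C57BL/6 lungs at Af 96 h with ozone. All 12 Af groups had means above all 6 groups without Af. Array by array, all 21 BALB/c arrays with Af exceeded the highest BALB/c array without it (5.25), as did 17 of 19 C57BL/6 arrays (5.85) and 18 of 21 SP-D-/- arrays (7.63).

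**Figure D1:**
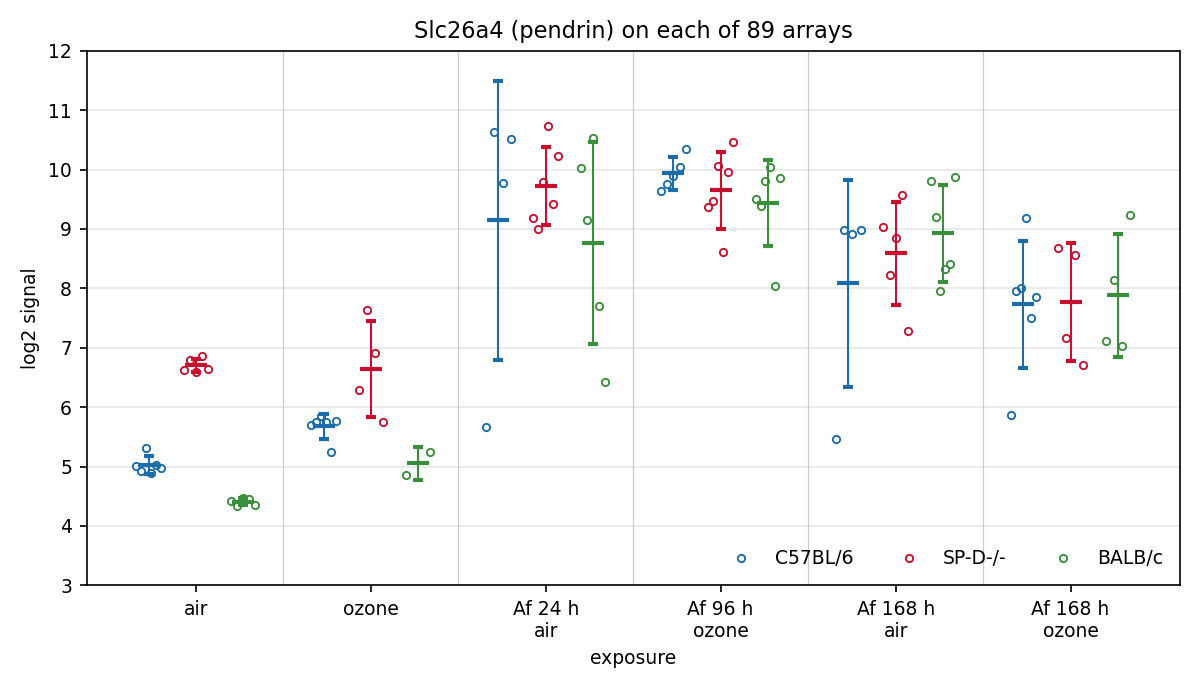
Slc26a4 log2 signal (vertical axis) on each of the 89 arrays by exposure (horizontal axis) and strain (colour), with the group mean and SD as bars. Arrays with Af lie mostly between 7 and 10.7 in the 3 strains, while air arrays lie near 4.4 in BALB/c, 5.0 in C57BL/6 and 6.7 in SP-D-/- lungs.

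At 24 h after Af, Slc26a4 rose in each strain. The 6 C57BL/6 air arrays ran from 4.88 to 5.31, with a median of 5.0, and the Af arrays were 5.67, 10.63, 9.78 and 10.51. The SP-D-/- air arrays were 6.63, 6.80, 6.60, 6.86 and 6.64, and the 6 Af arrays ran from 9.0 to 10.73, with a median of 9.61. The BALB/c air arrays were 4.42, 4.33, 4.47, 4.45 and 4.35, and the Af arrays were 10.02, 9.15, 10.53, 7.70 and 6.42. Every Af array was above every air array of its strain. The low Af arrays were C57BL/6 replicate 1 and the 2 doubted BALB/c arrays, flagged by low Sftpd alone. Slc26a4 rose 17.5-fold in C57BL/6 lungs (log2 4.13 ± 0.60, adjusted p = 3.78e-06), where it was the only one of the 7 genes called, and 16.2% of all genes tested were called. The rise was 8.11-fold in SP-D-/- lungs (log2 3.02 ± 0.57, adjusted p = 0.000399), again the only one of the 7, with 4.71% of genes called. In BALB/c lungs it was 20.5-fold (log2 4.36 ± 0.59, adjusted p = 3.78e-07), and 5.50 ± 0.64 on the log2 scale without the 2 doubted arrays. Of the 5 BALB/c air arrays, 3 lay below the filter, and with these raised to it the rise is at least 19.8-fold. In that comparison 4 of the 7 genes were called and 12.1% of all genes. Genes whose Af arrays all lay above the air arrays made up 4.6% of all genes in C57BL/6, 4.1% in SP-D-/- and 3.6% in BALB/c lungs. The SEs come from a spread shared by all groups, while the Af arrays of Slc26a4 had SDs of 2.35, 0.66 and 1.70 in these strains. In the 9 other fits its adjusted p went up to 0.00991, 0.000439 and 0.0084, called in each.

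At 168 h with air Slc26a4 was above air in C57BL/6 and BALB/c lungs. The C57BL/6 arrays were 5.47 in replicate 2 and 8.99, 8.91 and 8.97 in the others, 8.37-fold above air (log2 3.06 ± 0.60, adjusted p = 0.00156). Without replicate 2 the C57BL/6 change was 3.94. The C57BL/6 Af arrays had an SD of 1.75, and in other fits the adjusted p went up to 0.0132. The 6 BALB/c arrays ran from 7.96 to 9.88, with a median of 8.80, 23.0-fold above air (log2 4.52 ± 0.57, adjusted p = 5.82e-08), or at least 22.2-fold with air raised to the filter. The SP-D-/- arrays were 9.02, 8.23, 8.84, 9.57 and 7.29, and their change of 1.89 ± 0.59 had an adjusted p of 0.0855. In each strain the arrays lay above those of air, as did those of 9.35%, 4.27% and 2.77% of genes in C57BL/6, SP-D-/- and BALB/c lungs. Counting either direction, 2 of the 7 genes were called in C57BL/6, 0 in SP-D-/- and 1 in BALB/c lungs, where 1.35%, 1.35% and 1.56% of all genes were. The SP-D-/- change was called in 6 of the 9 other fits made of it, among them the fit without the doubted arrays (1.89, adjusted p = 0.0412). These changes share their air arrays with those at 24 h. Set directly against 24 h, the level at 168 h differed by -1.06 ± 0.66 in C57BL/6 (adjusted p = 0.36), -1.13 ± 0.57 in SP-D-/- (0.57) and 0.16 ± 0.57 in BALB/c lungs (0.909). Without the doubted arrays the BALB/c direction turned, to -0.97 ± 0.62 (adjusted p = 0.512). Of the 7 genes, 0, 0 and 1 were called there, and 0.186%, 1.36% and 4.36% of all genes.

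With ozone, Slc26a4 rose at 96 h in each strain. The 6 C57BL/6 arrays with ozone alone ran from 5.25 to 5.85, with a median of 5.75, and those with Af and ozone were 9.64, 9.76, 9.89, 10.04 and 10.35. SP-D-/- lungs with ozone alone gave 6.29, 7.63, 6.91 and 5.75, and the 6 with Af ran from 8.61 to 10.46, with a median of 9.71. The BALB/c ozone arrays were 4.86 and 5.25, and the 6 with Af ran from 8.04 to 10.04, with a median of 9.66. No Af array overlapped the ozone arrays of its strain, and 6.64%, 5.42% and 9.33% of genes were higher without overlap in C57BL/6, SP-D-/- and BALB/c lungs. Slc26a4 rose 19.2-fold in C57BL/6 (log2 4.26 ± 0.57, adjusted p = 8.06e-08) and 8.05-fold in SP-D-/- lungs (3.01 ± 0.60, adjusted p = 0.00258). In BALB/c lungs it rose 20.9-fold (4.39 ± 0.76, adjusted p = 0.00135), a call that rests on 2 ozone arrays and was lost without replicate 1 or 3 of them (changes of 4.19 and 4.58, adjusted p = 0.367 and 0.178). Without the doubted arrays the changes were 4.33, 3.07 and 4.39. In these comparisons 4, 2 and 1 of the 7 genes were called, and 36.4%, 2.58% and 0.0531% of all genes.

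From 96 to 168 h with ozone, Slc26a4 fell in C57BL/6 and in SP-D-/- lungs. The 6 C57BL/6 arrays at 168 h ran from 5.87 to 9.18, with a median of 7.91, all below those at 96 h, as for 0.372% of genes. The SP-D-/- arrays were 8.67, 7.16, 8.56 and 6.70, and the first of them lay within the range at 96 h. The BALB/c arrays were 7.12, 8.15, 7.02 and 9.24, the last from the doubted replicate 6, and overlapped those at 96 h. The change was -2.21 ± 0.57 in C57BL/6 lungs (adjusted p = 0.0237), where 1 of the 7 genes was called and 1.82% of all genes. It was -1.88 ± 0.60 in SP-D-/- lungs (adjusted p = 0.0303), with 2 of the 7 called and 15% of all genes, and -1.56 ± 0.60 in BALB/c lungs (0.767), with 0 of 7 and 0.0465%. Without the doubted arrays the 3 changes were -2.23, -1.94 and -2.01 (adjusted p = 0.0103, 0.0175 and 0.278). Both calls turned on single arrays, and 1 and 4 of 9 other fits also ended them. The C57BL/6 call was lost without Af 96 h replicate 4 or 6 or Af 168 h replicate 1 (adjusted p up to 0.0737). The SP-D-/- call was lost without Af 96 h replicate 3, 5 or 6 or Af 168 h replicate 1 or 6 (up to 0.237).

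Against ozone alone, Slc26a4 at 168 h with ozone was 4.15-fold higher in C57BL/6 lungs (log2 2.05 ± 0.54, adjusted p = 0.00673), with 3 of the 7 genes and 16.5% of all genes called. The lowest Af array, replicate 1 at 5.87, lay just above the highest ozone array at 5.85, and 0.982% of genes were higher without overlap. Fitted on these 2 groups alone, the adjusted p was 0.12. The change was 1.13 ± 0.66 in SP-D-/- (adjusted p = 0.379) and 2.83 ± 0.81 in BALB/c lungs (0.999; 2.38 without the doubted array), where no gene of the set was called and 3.18% and 0.00664% of all genes were. The BALB/c arrays did not overlap, which was so for 11.7% of genes in that direction. At 168 h after Af, ozone against air gave -0.36 ± 0.60, -0.82 ± 0.63 and -1.05 ± 0.60 in C57BL/6, SP-D-/- and BALB/c lungs (adjusted p = 0.761, 0.49 and 0.709). The BALB/c difference was -1.50 ± 0.62 (adjusted p = 0.383) without the doubted array. None of the 7 genes was called there in any strain, with 0.0597%, 0.604% and 0.0199% of all genes.

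Ozone without Af gave no call among the 7 genes. Slc26a4 differed from air by 0.65 ± 0.54 in C57BL/6 (adjusted p = 1), -0.06 ± 0.63 in SP-D-/- (0.971) and 0.65 ± 0.78 in BALB/c lungs (1), and 0.0266%, 0.0996% and 0.0133% of genes were called. A C57BL/6 air array (5.31) lay above an ozone array (5.25), and the SP-D-/- ozone arrays lay on both sides of air. The 2 BALB/c ozone arrays lay above air, as did those of 6.67% of genes. Fitted on the 2 C57BL/6 groups alone, whose own spread is small, the same change had an SE of 0.12 and an adjusted p of 0.0412. Over all genes, 187 had an unadjusted p under 0.05 in the C57BL/6 comparison and 2511 in the SP-D-/- one.

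In air, the Slc26a4 arrays of the 3 strains did not overlap. SP-D-/- lungs were 3.21-fold above C57BL/6 lungs (log2 1.68 ± 0.57, adjusted p = 1), and higher arrays without overlap were found for 1.19% of genes. The BALB/c minus C57BL/6 difference was -0.62 ± 0.57 (adjusted p = 1), in a direction where 2.22% of genes did not overlap, and with 3 of 5 BALB/c arrays below the filter its size is not set. No gene of the set was called between strains in air, with 0.0664% and 0.511% of all genes called. The shared fit takes its spread from all groups, and Slc26a4 varied far more after Af than in air. On the 2 air groups alone, the SEs were 0.11 and 0.10 and the adjusted p-values 5.6e-06 and 0.00499. The air arrays of SP-D-/- lungs also had higher signals of the goblet cell chloride channel regulator Clca1, at 7.54 ± 0.83 (SD, n = 5) against 5.21 ± 0.85 (SD, n = 6) in C57BL/6 air lungs. The Clca1 arrays did not overlap, as for 1.19% of genes in that direction, and the difference was not called. The mean of 5 goblet markers that include it ran from 5.60 to 6.75 against 5.08 to 5.69. With ozone alone Clca1 was no higher in SP-D-/- lungs, at 3.72 ± 0.61 (SD, n = 4) against 3.97 ± 0.80 (SD, n = 6), mostly below the filter. The part of Clca1 in the Slc26a4 difference was not tested. After ozone the SP-D-/- arrays of Slc26a4 overlapped those of C57BL/6 lungs (0.97 ± 0.60, adjusted p = 0.374), and after Af the strains overlapped in each exposure. Neither strain had a call among the 7 genes against C57BL/6 after ozone or Af. In the order ozone, Af 24 h, Af 96 h, and 168 h in air and in ozone, 0.797%, 0.0863%, 16.2%, 0.0199% and 0.504% of all genes were called for SP-D-/- and 0.146%, 0.385%, 6.26%, 0.597% and 0.139% for BALB/c lungs.

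The rise after Af was not shown to differ between strains. At 24 h the SP-D-/- response minus the C57BL/6 response was -1.11 ± 0.83 (95% interval -2.75 to 0.54, adjusted p = 0.998), and the BALB/c response minus that of C57BL/6 was 0.23 ± 0.84 (-1.45 to 1.91, adjusted p = 1), or 1.37 ± 0.85 (adjusted p = 0.908) without the doubted arrays. At 168 h with air these differences were -1.18 ± 0.84 (-2.86 to 0.51, adjusted p = 0.999) and 1.46 ± 0.83 (-0.19 to 3.10, adjusted p = 0.997). The intervals leave room for differences of over 1 log2 unit in either strain. No difference of response was called for any of the 7 genes, with 0.0133% of all genes called for the BALB/c difference at 24 h, 0.00664% for the SP-D-/- difference at 168 h and 0 genes for the other 4. At an unadjusted p under 0.05, limma gave 131 to 1157 genes in the 6 tests.

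In C57BL/6 lungs, 3 arrays after Af had Slc26a4 levels near those of lungs without it: replicate 1 at 24 h (5.67), replicate 2 at 168 h with air (5.47) and replicate 1 at 168 h with ozone (5.87). The same 3 arrays were the lowest of their groups for Fxyd4, a regulator of the sodium pump, at 4.82, 4.42 and 4.32, within the range of 3.53 to 5.37 of C57BL/6 arrays without Af. Fxyd4 is among the genes picked below as most like Slc26a4 over group means that include these arrays, so this is no separate support. How many genes were lowest on all 3 was not counted. Ccl9, picked likewise, was at 7.42, 8.13 and 7.61 on them. On the third, replicates 5 (7.08) and 6 (7.34) of its group were lower. For Clca1 the 3 arrays went separate ways. The first had the highest level of its group (9.40), the second lay within its group (7.96), and the third was the lowest (4.68), below the highest C57BL/6 array without Af (5.78). The mean of 5 club cell markers was 10.38, 10.91 and 11.01 on them, the highest of the group on the first and the third.

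Over the 18 group means, the genes most like Slc26a4 were Ccl9, a chemokine of myeloid cells (Pearson r = 0.954), Fxyd4 (0.950), Ddias (0.944), Trpt1 (0.937), Cks1b, a cell cycle kinase subunit (0.924), Ampd2 (0.923), AI662270 (0.922) and Birc5, a mitotic survival factor (0.920). The points share the contrast of Af against no Af. Among the other genes of the set the correlation was 0.59 for Slc12a2, 0.29 for Cftr, -0.09 for Scnn1a, -0.20 for Scnn1g, -0.25 for Scnn1b and -0.66 for Ano1. Ccl9 group means ran from 6.56 to 9.34 and those of Fxyd4 from 4.11 to 7.32.

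Cftr, the chloride and bicarbonate channel that is defective in cystic fibrosis, changed less than Slc26a4 and its arrays spread widely. At Af 96 h with ozone, C57BL/6 arrays were 8.00, 6.14, 8.45, 6.48 and 6.26, against 4.04 to 6.27 with ozone alone (6 arrays, median 5.92). Replicates 1 and 3 were high, and the groups overlapped. Cftr rose 2.69-fold (log2 1.43 ± 0.56, adjusted p = 0.0392). The call was lost without ozone replicate 2, 4 or 5 or Af replicate 1 or 3 (adjusted p up to 0.152), and the change was 1.19 (adjusted p = 0.0361) without the doubted replicate 1. The change was 1.65 ± 0.60 in SP-D-/- (adjusted p = 0.115) and 0.71 ± 0.76 in BALB/c lungs (1). From 96 to 168 h with ozone, Cftr in SP-D-/- lungs differed by -1.49 ± 0.60 (adjusted p = 0.0696), called without the doubted array (-1.30, adjusted p = 0.048).

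At Af 24 h, Cftr was at 7.83, 6.79, 4.74 and 6.57 in C57BL/6 and at 5.11 to 7.72 in SP-D-/- lungs (6 arrays, median 6.75). The C57BL/6 arrays spread over both sides of the air range of 4.88 to 6.09, and all but the lowest of the SP-D-/- arrays lay above the air range of 5.24 to 5.92. The changes were 0.86 ± 0.60 (adjusted p = 0.306) and 1.04 ± 0.56 (0.315). BALB/c lungs gave 6.71, 7.23 and 7.64, and 3.77 and 3.28 on the 2 doubted arrays, against air arrays of 6.75, 7.22, 7.38, 7.24 and 7.34. The BALB/c change of -1.46 ± 0.59 (adjusted p = 0.0866) was 0.01 without those 2 arrays. Cftr was called higher at 168 than at 24 h in BALB/c lungs (1.91 ± 0.56, adjusted p = 0.0339), the one gene of the set called there. That call was lost without Af 24 h replicate 4 or 5 or Af 168 h replicate 1, 2, 3 or 5 (adjusted p up to 0.203), and was 0.44 (adjusted p = 0.771) without the doubted arrays.

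In air, all BALB/c Cftr arrays (6.75 to 7.38) lay above all C57BL/6 arrays (4.88 to 6.09), a difference of 1.56 ± 0.56 or 2.95-fold (adjusted p = 0.492). Higher arrays without overlap were found for 1.85% of genes in this comparison. On the 2 groups alone the adjusted p was 0.000943, and after ozone the strains did not overlap either (1.59 ± 0.76, adjusted p = 1), as for 8.68% of genes with 2 BALB/c arrays. SP-D-/- air arrays of Cftr (5.24 to 5.92) overlapped those of C57BL/6 lungs. The second Cftr probe set was above the filter on 0 arrays.

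Ano1, the calcium-activated chloride channel of airway epithelium and smooth muscle, fell after Af in 3 comparisons, BALB/c at 24 h and C57BL/6 at 96 and 168 h with ozone. The BALB/c air arrays were 9.59, 9.34, 9.09, 9.06 and 8.12, and those at Af 24 h were 7.85, 7.52, 7.00, 4.31 and 4.82. All Af arrays lay below all air arrays, as for 7.25% of genes, and the 2 lowest were the doubted ones. Ano1 fell 6.69-fold (log2 -2.74 ± 0.63, adjusted p = 0.00221), and the change was -1.58 (adjusted p = 0.0888) without those 2. In SP-D-/- lungs the 6 Af arrays ran from 4.54 to 8.63 (median 8.22) below air arrays of 8.79 to 9.28, as for 6.15% of genes. That change was -1.54 ± 0.61 (adjusted p = 0.142, and 0.034 without the doubted arrays). In C57BL/6 lungs the Af arrays were 9.35, 8.76, 7.32 and 7.21 against 8.84 to 9.32 in air (6 arrays, median 9.06).

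With ozone, Ano1 fell in C57BL/6 lungs. The 6 arrays with ozone alone ran from 9.13 to 9.75 (median 9.46), and those at Af 96 h were 5.39, 6.10, 8.62, 7.11 and 9.43. The last of these overlapped the ozone arrays, and the first was the doubted replicate 1. The fall was 4.41-fold (log2 -2.14 ± 0.61, adjusted p = 0.00492), and -1.66 (adjusted p = 0.00737) without it. At 168 h with ozone the 6 arrays ran from 4.07 to 9.21 (median 8.25), a fall of 3.44-fold (-1.78 ± 0.58, adjusted p = 0.0267). It was lost without ozone replicate 4 or Af replicate 5 or 6 (adjusted p up to 0.232), replicate 5 being the doubted array at 4.07, without which the change was -1.06. The calls in the 3 comparisons were lost in 4, 4 and 7 of 11 other fits, in the last with changes down to -0.44 (adjusted p up to 0.77). A second, dimmer Ano1 probe set changed by -1.05 (adjusted p = 0.0451), -1.11 (0.009) and -0.74 (0.103) in the BALB/c 24 h, C57BL/6 96 h and C57BL/6 168 h comparisons. In SP-D-/- lungs no Ano1 change was called at 96 h, with arrays at 6.60, 8.37, 8.67 and 7.06 with ozone alone and 7.32 to 8.96 with Af.

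SP-D-/- lungs had lower Ano1 arrays after ozone than in air, without overlap (-1.37 ± 0.67, adjusted p = 0.288), as had 5.88% of genes. They also lay below all C57BL/6 ozone arrays (-1.80 ± 0.65, adjusted p = 0.14, and 0.038 without the doubted arrays), as had 5.1% of genes, and none of the 7 genes was called in that comparison, with 0.797% of all genes. Group means in air were 9.05 ± 0.17 (SD, n = 6) in C57BL/6, 9.05 ± 0.23 (SD, n = 5) in SP-D-/- and 9.04 ± 0.56 (SD, n = 5) in BALB/c lungs. Smooth muscle markers were also lower in several of the comparisons in which Ano1 was lower, to differing extents. At Af 24 h, 3 of 4 were called lower in C57BL/6, 2 of 4 in SP-D-/- and 2 of 4 in BALB/c lungs, and the mean of the list ran from 6.12 to 6.83 against 7.98 to 8.46 in C57BL/6 air lungs, and from 6.02 to 7.65 against 7.62 to 8.33 in BALB/c air lungs. It also ran from 6.91 to 7.58 after ozone against 7.93 to 8.47 in air in SP-D-/- lungs. At Af 96 h with ozone, 3 of 4 were called lower in C57BL/6 and 0 of 4 in SP-D-/- lungs. At Af 168 h with ozone in C57BL/6 lungs, only Myh11 of this list was called lower (-1.67 ± 0.40, adjusted p = 0.00317). The part of these markers in the Ano1 changes was not tested.

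**Figure D2:**
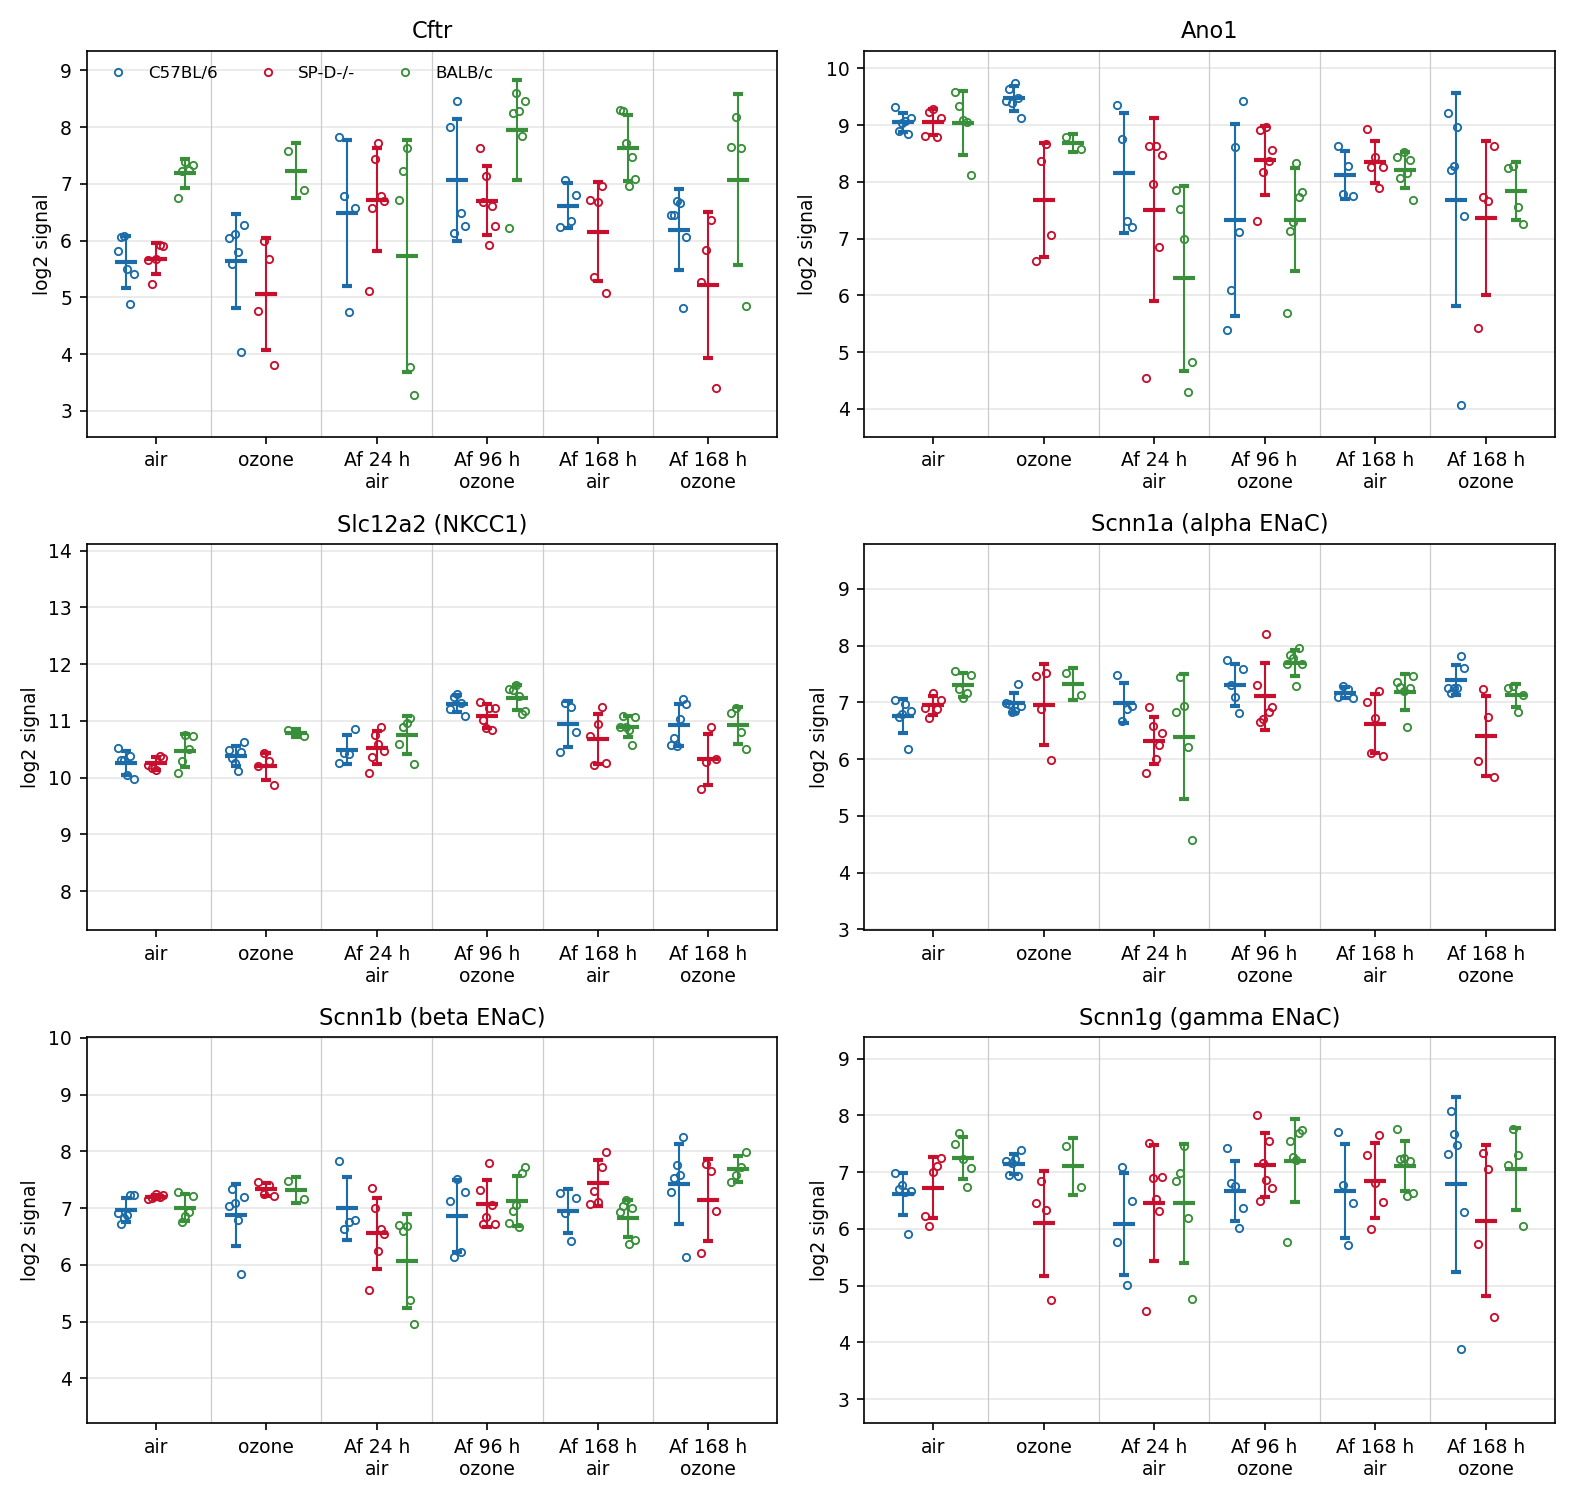
Log2 signal of Cftr, Ano1, Slc12a2, Scnn1a, Scnn1b and Scnn1g (1 panel each, vertical axis) on each array by exposure (horizontal axis) and strain (colour), with group mean and SD. Slc12a2 is highest at Af 96 h with ozone, Ano1 has its lowest arrays after Af, and the BALB/c Cftr arrays in air lie above those of the other strains.

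Slc12a2, which brings chloride into the cell together with sodium and potassium, rose by less than 1 log2 unit on tightly grouped arrays (within-group SD 0.28). The C57BL/6 arrays at Af 96 h with ozone were 11.22, 11.42, 11.47, 11.31 and 11.09, all above the 6 with ozone alone, which ran from 10.11 to 10.63 with a median of 10.40. Higher arrays without overlap were found for 6.64% of genes there. Slc12a2 rose 1.89-fold (log2 0.92 ± 0.18, adjusted p = 8.79e-05). In SP-D-/- lungs the 6 Af arrays ran from 10.85 to 11.33 (median 11.12) above ozone arrays of 10.20, 10.44, 10.30 and 9.88, as for 5.42% of genes. That rise was 1.85-fold (0.88 ± 0.19, adjusted p = 0.00406) and was lost without ozone replicate 5 (adjusted p = 0.0804). BALB/c arrays did not overlap either, 11.12 to 11.63 against 10.84 and 10.74 (0.62 ± 0.24, adjusted p = 0.797), as for 9.33% of genes.

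Slc12a2 was also called higher in C57BL/6 lungs at 168 h. With air the arrays were 10.45, 11.31, 11.24 and 10.80, overlapping air arrays of 9.97 to 10.51, a rise of 0.69 ± 0.19 (adjusted p = 0.0454) that was lost without any 1 of air replicates 2 to 6 or Af replicates 3, 4 or 6 (adjusted p up to 0.303). With ozone the rise was 0.54 ± 0.17 (adjusted p = 0.0246; 0.45 and 0.0848 without the doubted array), lost without ozone replicate 3 or 4 or Af replicate 4, 5 or 6 (up to 0.112). From 96 to 168 h with ozone it fell in SP-D-/- lungs to 9.80, 10.27, 10.89 and 10.32 (-0.76 ± 0.19, adjusted p = 0.0102), a call lost without Af 168 h replicate 1 or 6 (up to 0.0878). The 2 other Slc12a2 probe sets, with means of 6.37 and 5.77 over arrays against 10.71, went against the brightest one in C57BL/6 and with it in SP-D-/- lungs. At Af 96 h with ozone they changed by -1.24 (adjusted p = 0.0196) and -0.72 (0.138) in C57BL/6, and by 0.72 (0.392) and 1.82 (0.00898) in SP-D-/- lungs. From 96 to 168 h in SP-D-/- lungs they changed by -0.57 (0.371) and -1.52 (0.0164). The Slc12a2 rise in C57BL/6 lungs therefore holds for the brightest probe set only.

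Of the ENaC subunits, Scnn1a and Scnn1b changed in BALB/c lungs at Af 24 h and in no other comparison. Scnn1a, the alpha subunit, was at 7.56, 7.23, 7.07, 7.16 and 7.48 in air and at 6.83, 7.44, 6.93, 6.21 and 4.58 after Af. Scnn1b was at 7.29, 6.75, 6.87, 6.93 and 7.22 in air and at 6.70, 6.60, 6.68, 5.39 and 4.97 after Af. The Scnn1a arrays overlapped, and the Scnn1b arrays did not, as for 7.25% of genes in that direction. In both genes the 2 doubted arrays were the lowest. Scnn1a fell by 0.90 ± 0.29 (adjusted p = 0.0301) and Scnn1b by 0.95 ± 0.31 (adjusted p = 0.0331). Without those 2 arrays the changes were -0.23 (adjusted p = 0.752) and -0.35 (0.642). Single arrays ended both calls: air replicates 1, 2 and 6 and Af replicates 4 and 5 for Scnn1a (adjusted p up to 0.254), and air replicates 1, 3, 4 and 6 and Af replicates 4 and 5 for Scnn1b (up to 0.152). The mean of the 5 club cell markers fell from 10.35 to 11.05 in BALB/c air lungs to between 5.78 and 9.25 at Af 24 h, and its part in these changes was not tested.

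Scnn1g was called in none of the 42 comparisons. Its group means ran from 6.09 to 7.25, and its lowest array was 3.89, C57BL/6 Af 168 h with ozone replicate 5. The largest rise was 1.04 ± 0.51 in SP-D-/- lungs at Af 96 h with ozone (adjusted p = 0.254). SP-D-/- arrays lay below C57BL/6 arrays after ozone (-1.05 ± 0.51, adjusted p = 0.259), as for 5.1% of genes. The spans of the group means were 1.15 for Scnn1g, 1.37 for Scnn1a and 1.62 for Scnn1b, larger than in 44.4%, 59.1% and 72.6% of genes tested, against 97.1% for Cftr (2.89), 98.2% for Ano1 (3.17) and 48.3% for Slc12a2 (1.21).

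**Figure D3:**
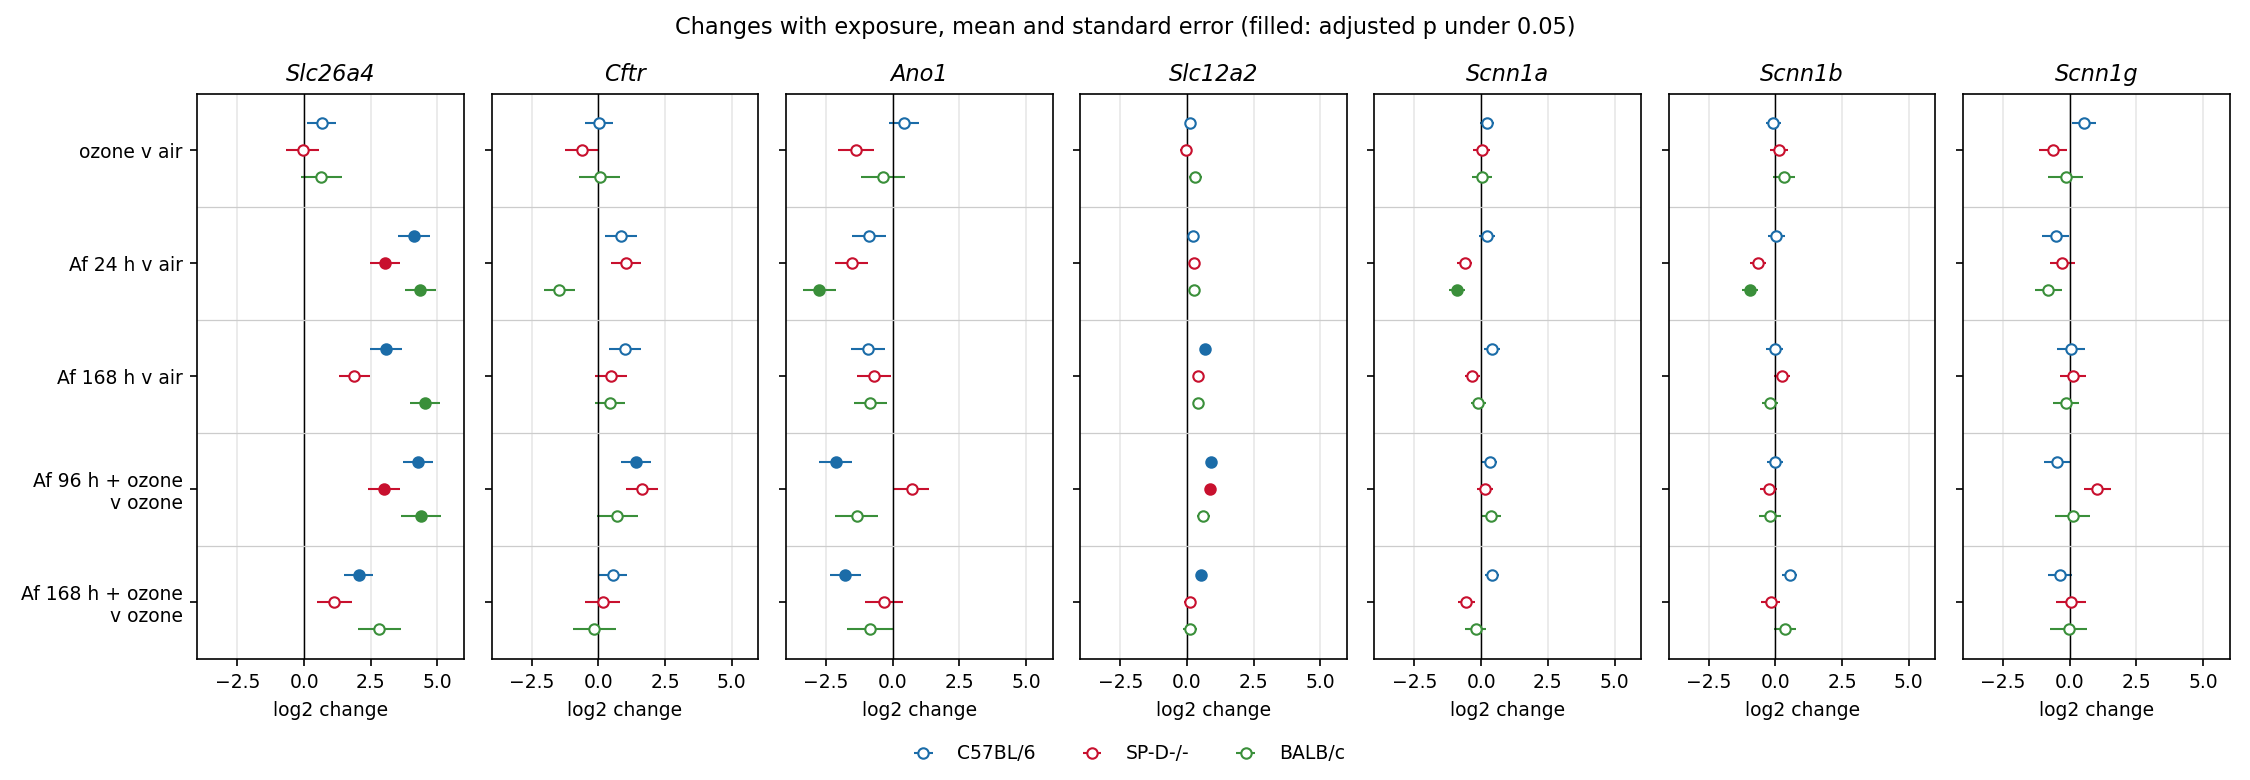
Changes of the 7 genes (log2 change ± SE, horizontal axis, 1 panel a gene) in 5 comparisons (vertical axis) and 3 strains (colour), filled where the adjusted p was under 0.05. Slc26a4 is filled in 9 of the 12 comparisons with Af and open for ozone alone, and Scnn1g is open throughout.

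Part of the spread between arrays moved with the hybridization control level. Within groups, Cftr changed by -0.54 ± 0.09 per log2 unit of that level (adjusted p = 9.17e-08), Scnn1g by -0.50 ± 0.07 (2.72e-09) and Ano1 by -0.39 ± 0.11 (0.000791). For Slc26a4 the slope was -0.20 ± 0.11 (0.0709), and for Slc12a2, Scnn1a and Scnn1b it was between -0.08 and -0.02 and not called. The slope was called in 76.9% of all genes. Group means of the control level differed between groups compared: 8.59 in C57BL/6 ozone lungs, 10.90 at Af 96 h with ozone and 9.84 at Af 168 h with ozone. With the level in the fit and without the doubted arrays, Cftr was called higher at Af 24 h in C57BL/6 (1.37, adjusted p = 0.0133) and SP-D-/- lungs (1.39, adjusted p = 0.0102), and at Af 96 h with ozone in C57BL/6 lungs it rose by 2.25 ± 0.43 (adjusted p = 0.000106). The BALB/c level of Cftr in air was then called above that of C57BL/6 lungs (1.54, adjusted p = 0.0101). The Ano1 change at Af 96 h with ozone in C57BL/6 lungs was -0.97 (adjusted p = 0.216). The Slc26a4 changes at Af 24 h were 4.39, 3.20 and 5.60 in C57BL/6, SP-D-/- and BALB/c lungs. Its fall from 96 to 168 h in SP-D-/- lungs was then -1.65 (adjusted p = 0.068). Over all arrays the within-group deviations of Cftr and Scnn1g had a correlation of 0.71, against 0.28 for Cftr and Slc26a4 (89 arrays that share this level).

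**Figure D4:**
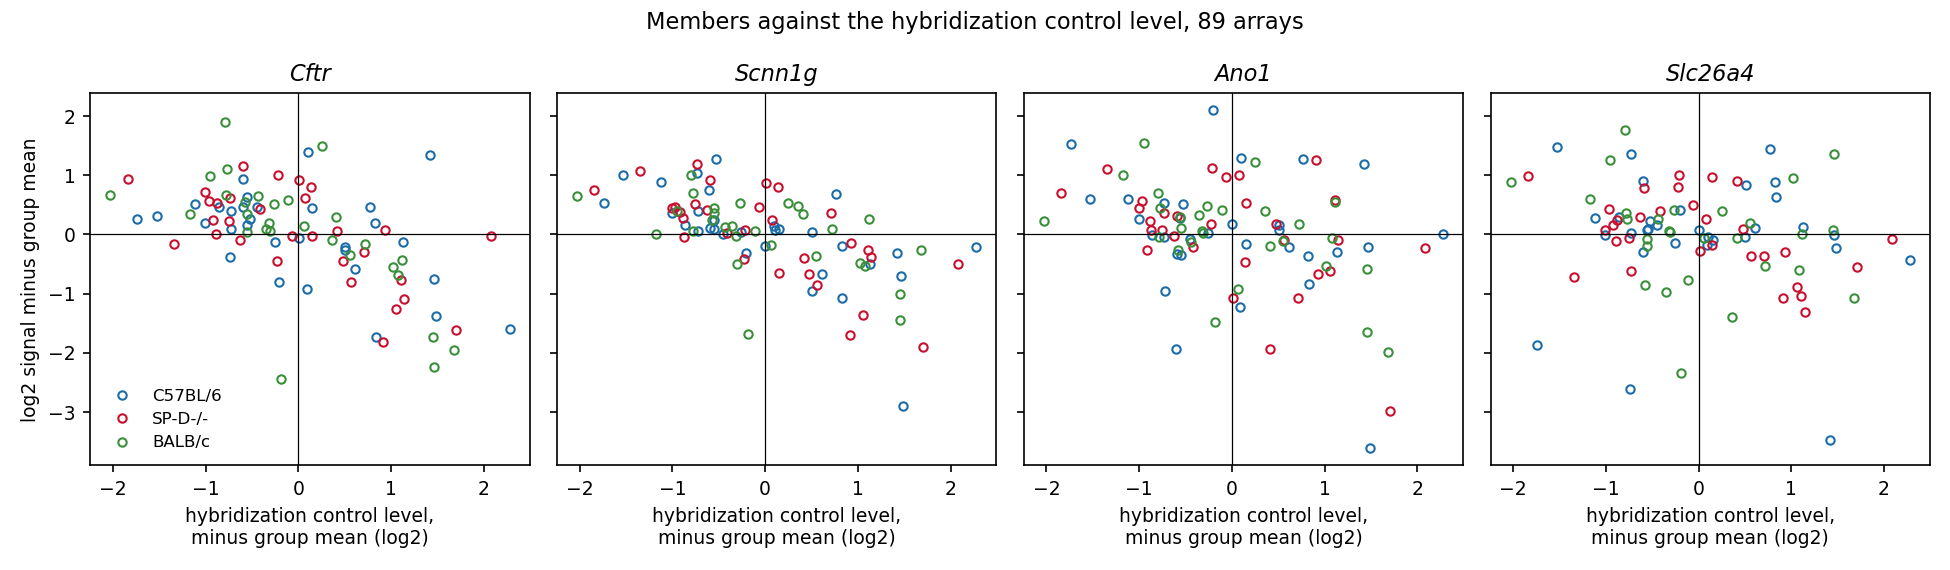
Log2 signal of Cftr, Scnn1g, Ano1 and Slc26a4 (1 panel each) minus its group mean (vertical axis) against the hybridization control level minus its group mean (horizontal axis, log2), for 89 arrays coloured by strain. The slopes are -0.54 for Cftr, -0.50 for Scnn1g, -0.39 for Ano1 and -0.20 for Slc26a4.

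Other genes of the pathway were read from 9 lists of 143 genes. At Af 24 h, 6.4%, 1.6% and 3.92% of all genes rose and 9.78%, 3.11% and 8.13% fell in C57BL/6, SP-D-/- and BALB/c lungs, the order kept below. Among genes of epithelial cation transport, 2 of 17 tested rose and 3, 1 and 3 fell at Af 24 h in C57BL/6, SP-D-/- and BALB/c lungs. The 2 that rose in each strain were Fxyd4 (3.04 ± 0.68, 2.85 ± 0.63 and 3.13 ± 0.66, adjusted p = 0.00151, 0.00253 and 0.000804) and Kcnn4, the calcium-activated potassium channel that drives chloride exit (1.76 ± 0.32, 1.13 ± 0.30 and 1.22 ± 0.32, adjusted p = 0.000145, 0.016 and 0.00678). Most Fxyd4 air arrays of each strain lay below the filter (means 4.19, 4.44 and 4.11), so the size of its rise is not set. Without the doubted arrays the Kcnn4 change in BALB/c lungs was 1.03 (adjusted p = 0.0695). Atp1b1, a sodium pump subunit, fell in the 3 strains, by 0.74 ± 0.18, 0.75 ± 0.17 and 0.99 ± 0.17. Fxyd4 also rose at Af 96 h with ozone in C57BL/6 (2.46 ± 0.63) and SP-D-/- lungs (2.70 ± 0.68). Its C57BL/6 arrays with ozone alone also lay mostly below the filter (mean 4.14).

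Of 17 tested genes that regulate ENaC, more fell than rose at 24 h: 1 rose and 3 fell in C57BL/6, 0 and 3 in SP-D-/-, 0 and 6 in BALB/c lungs, with list medians of -0.44, -0.57 and -0.59 against 0.00, 0.01 and -0.01 over all genes. They include Nedd4, a ubiquitin ligase of the family that removes ENaC (-2.24 ± 0.53, -1.58 ± 0.50 and -1.73 ± 0.52), and Nr3c2, the mineralocorticoid receptor (-1.15 ± 0.32, -1.12 ± 0.30 and -1.28 ± 0.31). Sgk1, the kinase that opposes that removal, fell in C57BL/6 (-0.95 ± 0.22) and BALB/c lungs (-0.76 ± 0.22). At Af 96 h with ozone in C57BL/6 lungs 8 rose and 5 fell, where 17.2% and 19.2% of all genes did. Among those that rose was Spint2, an inhibitor of the proteases that activate ENaC (1.94 ± 0.33 there, 1.36 ± 0.35 in SP-D-/- lungs).

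Of the other chloride channel genes, 16 were tested, and at 24 h 2, 1 and 5 fell and 0, 0 and 2 rose. Clic6, an intracellular chloride channel protein, fell in the 3 strains (-3.59 ± 0.60, -3.23 ± 0.56 and -3.08 ± 0.59, adjusted p = 4.15e-05, 0.000145 and 0.000222). Of 16 bicarbonate and pH genes, 2, 3 and 2 fell and none rose. Among them was Slc4a5, a sodium-bicarbonate cotransporter (-1.92 ± 0.42, -1.70 ± 0.39 and -1.89 ± 0.41). Of 5 aquaporins, 1, 1 and 2 fell, with the water channel Aqp4 in each strain (-1.50 ± 0.47, -1.97 ± 0.44 and -2.42 ± 0.46). Of 19 regulators of CFTR and NKCC1, 3, 0 and 0 rose and 3, 0 and 4 fell. Of 6 genes of ionocytes, the rare cells richest in Cftr, none rose and 1, 2 and 0 fell, and of 6 partners of pendrin in thiocyanate and peroxide chemistry 1 fell in BALB/c lungs. Club cell markers were called lower at 24 h for 4, 4 and 5 of 5, and ciliated cell markers for 4, 4 and 3 of 5, and their part in these falls was not tested.

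The list of type 2 cytokine and goblet cell genes, some known to rise with pendrin, had 17 members tested. At 24 h 3, 1 and 2 rose, among them Il13 in each strain (1.29 ± 0.27, 0.86 ± 0.26 and 0.98 ± 0.27). At Af 96 h with ozone 8 rose and 3 fell in C57BL/6, and 5 rose in SP-D-/- lungs, where 2.36% of all genes rose and 0.226% fell. Clca1 rose by 7.14 ± 0.87 and 7.52 ± 0.93 there (adjusted p = 1.36e-08 and 1.06e-07), against ozone arrays of which 5 of 6 and 4 of 4 lay below the filter, or by at least 6.56 and 6.79 with those raised to it, and the airway mucins Muc5ac (2.75 ± 0.55 and 2.62 ± 0.59) and Muc5b (1.47 ± 0.51 and 1.92 ± 0.54) rose too. In BALB/c lungs none of these genes was called at 96 h, against 2 ozone arrays. At Af 96 h with ozone, Clca1, Muc5ac and Muc5b were lower in BALB/c than in C57BL/6 lungs. The differences were -2.98 ± 0.87, -2.15 ± 0.55 and -1.78 ± 0.51 (adjusted p = 0.0277, 0.0114 and 0.0245). Slc26a4 had means of 9.44 and 9.94 in these groups, whose arrays overlapped. Clca1 at Af 24 h was at 7.62 ± 1.75 (SD, n = 4), 6.81 ± 2.25 (SD, n = 6) and 4.65 ± 1.45 (SD, n = 5) in C57BL/6, SP-D-/- and BALB/c lungs and not called against air. From 24 to 168 h it rose in SP-D-/- (4.26 ± 0.87, adjusted p = 0.00141) and BALB/c lungs (5.46 ± 0.87, adjusted p = 3.69e-05), and it was at 8.48 ± 2.12 (SD, n = 4) at 168 h in C57BL/6 lungs, not called. The Slc26a4 changes were -1.13, 0.16 and -1.06 in these strains, and the difference between the 2 genes was not tested. With ozone alone, 0 genes of the 9 lists were called in any strain. The thyroid also makes pendrin. Of 4 thyroid markers, Tg was above the filter on 89 arrays, Nkx2-1, which lung epithelium also makes, on 85, Tshr on 7 and Pax8 on 0. In C57BL/6 lungs Tg was called higher at Af 96 h with ozone (0.86 ± 0.35, adjusted p = 0.0457) and Tshr at Af 168 h with ozone (0.97 ± 0.28, adjusted p = 0.013). No thyroid marker was called at Af 24 h or at Af 168 h with air, and their part in the Slc26a4 changes was not tested.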

How the data were processed

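RNA of 89 mouse lung samples was measured on Affymetrix HT Mouse430PM arrays after NuGEN amplification, per the labels' protocols. The deposited values are log2 signals that the authors normalized, by a method not given in the sources used here. They run from 1.86 to 13.54, and each array has a median of 4.90. Of 45141 probe sets, 28898 had 1 gene symbol, 551 several and 15692 none here, and 104 were controls. A gene was read by its probe set with the highest mean. Genes above log2 4.45 on at least 4 arrays were tested (15065 of 17097).

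Group means of all 89 arrays were fitted with limma 3.58.1 (R 4.3.3) and 42 contrasts were taken, with two-sided moderated tests adjusted over the 15065 genes and called at an adjusted p under 0.05. The 8 genes and the pathway and marker lists were chosen with earlier results of these data known. Text names the genes of the set and, from the pathway lists, called genes. Genes like Slc26a4 are the 8 with the highest correlation over the 18 group means.

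The hybridization control level is the mean of 10 bioB and bioC probe sets, and the actin difference is the 3′ minus the 5′ beta-actin control. The index of strain summarises, by a median, where an array falls on 40 strain-specific genes, of which 17 were higher and 23 lower in BALB/c. Alternatives were cyclic loess, the mean of all probe sets, no filter, a replicate block, fits on the compared groups alone and leaving out each array. Fits without the 6 doubted arrays, and with the control level or actin difference, were chosen with the data seen.

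Replicate numbers are shared between groups. The deviations of all 4 same-numbered pairs correlated above 0.1 in one comparison, Af 168 h with ozone against Af 168 h with air in C57BL/6 lungs (mean r 0.34, against -0.06 for other pairs). The 2 SP-D-/- pairs of Af 168 h with ozone and ozone also did (mean r 0.42). The labels pair no arrays, and correlations picked from many comparisons do not set a pairing.

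RefSeq promoters (GRCm38.p6) were searched for the motifs on both strands. The code was tested on simulated data. Figures were drawn with matplotlib 3.10.9 in Python 3.11.15.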

Additional observations from a re-analysis of the deposited data

Results flagged for a closer look

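Over 7 genes, each in the 17 groups of 4 to 6 arrays, 119 sets of values were examined, and 17 had an array whose gap to the nearest other array exceeded Dixon's 95% critical value, and chance gives about 1 in 20. For Slc26a4 these were C57BL/6 Af 168 h with air replicate 2 at 5.47 (nearest other array 8.91), BALB/c Af 96 h with ozone replicate 5 at 8.04 (9.38), C57BL/6 air replicate 3 at 5.31 (5.02) and C57BL/6 ozone replicate 5 at 5.25 (5.70).

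C57BL/6 ozone replicate 5 also stood apart for Cftr at 4.04, Scnn1b at 5.84 and Scnn1a at 7.32, the last on the high side. The doubted C57BL/6 Af 168 h with ozone replicate 5 was low for Ano1 at 4.07 (nearest 7.40) and Cftr at 4.80, and the doubted BALB/c Af 168 h with ozone replicate 6 was low for Cftr at 4.84. BALB/c Af 96 h with ozone replicate 1 was low for Cftr at 6.22 and Scnn1g at 5.77, and C57BL/6 air replicate 5 for Scnn1a at 6.19 and Scnn1g at 5.90. The remaining arrays were BALB/c air replicate 1 for Cftr at 6.75, BALB/c Af 168 h with air replicate 4 for Scnn1a at 6.56, and C57BL/6 Af 24 h replicate 1 for Scnn1b at 7.83, above its group.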

How the results depend on the processing

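Of 32 changes of single genes, 239 values under other settings kept their direction and side of the threshold, 9 gained a call, 53 lost one and 13 reversed, and leaving out 1 array gave 275 unchanged and 51 lost. The causes were not tested. Slc26a4 at Af 168 h with air in SP-D-/- lungs was called with cyclic loess (1.94), without the doubted arrays (1.89), with the control level (2.05), with both (2.06), with the actin difference too (1.89) and on its 2 groups (1.89). At Af 168 h with ozone in C57BL/6 lungs it lost its call with the actin difference (2.00) and on 2 groups (2.05). On 2 groups it gained one for ozone in C57BL/6 (0.65), SP-D-/- against C57BL/6 air (1.68) and BALB/c against C57BL/6 air (-0.62). Leaving out 1 array gave 4.19 to 4.66 at Af 96 h with ozone in BALB/c lungs.

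Slc12a2 reversed in C57BL/6 lungs: at Af 96 h with ozone for the mean of its probe sets (-0.35) and the dimmer ones (-1.24 and -0.72, and -0.73 for the first with the control level and without the doubted arrays), at Af 168 h with ozone likewise (-0.55, -1.25, -0.94, -0.62 and -0.29), and at Af 168 h with air (-0.44, -0.090, -0.50 and -0.17).

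Members called at Af 24 h became 2 in C57BL/6 lungs with the control level, with all arrays or without the doubted ones, and 2 in SP-D-/- lungs in the 4 fits with the control level or without the doubted arrays. In BALB/c lungs they became 2 with loess or on 2 groups, 1 in the fits without the doubted arrays, and 2 to 5 leaving out 1 array. At Af 168 h with air they became 1 in C57BL/6 lungs with loess, the mean of probe sets, the replicate block or the actin difference, 4 on 2 groups, and 1 to 2 leaving out 1 array, and 1 in SP-D-/- lungs in the 6 fits above. At Af 96 h with ozone they were 2 with the mean of probe sets in C57BL/6, 1 to 3 in SP-D-/- and 0 to 1 in BALB/c lungs leaving out 1 array. At Af 168 h with ozone in C57BL/6 lungs they were 1 without the doubted arrays, 0 with the actin difference or on 2 groups, and 1 to 3 leaving out 1 array.

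With a replicate block, the Slc26a4 difference between ozone and air at Af 168 h in C57BL/6 lungs, where same-numbered arrays correlated, was -0.18 (adjusted p = 0.891) instead of -0.36, not called in either. By the labels, arrays share only a number, and among the values tried the block ended 1 call, Slc12a2 at Af 168 h with air in C57BL/6 lungs.

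The number of arrays limits what these data can show: with 2 BALB/c ozone arrays, a Slc26a4 change of 2.83 was not called.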
